A study of Mus musculus with 2 samples.

Results

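The miR-17-92 cluster is a group of 6 microRNA (miRNA) genes, Mir17, Mir18, Mir19a, Mir20a, Mir19b-1 and Mir92-1, that lie side by side on mouse chromosome 14. They were taken by name from 1973 miRNA genes counted in small RNA of the embryonic kidney, and all 6 had reads in both libraries. The kidneys came from healthy B6NCrl mice, an inbred strain, taken as embryos of 15.5 days, with no treatment or allele named in the labels. The 2 libraries make up 1 group of biological replicates. Replicate 1 pooled kidneys of 78 embryos and replicate 2 those of 62 embryos, males and females together, so single embryos and sexes cannot be compared. No other tissue, age or condition was sampled. The values therefore answer how much of each miRNA gene this organ carried, in what proportions, and how closely the pools matched.

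A miRNA cluster of this kind is transcribed as 1 long RNA, from which the enzyme Drosha cuts hairpins and Dicer then cuts the short mature miRNAs. Bases 2 to 8 of a mature miRNA, its seed, largely decide which messenger RNAs it represses, so genes with a shared seed are grouped as a family. The miR-17-92 cluster is induced by MYC, is amplified in some lymphomas, and represses inhibitors of growth and inducers of cell death. In the kidney it is known for sustaining proliferation of nephron progenitors, the cap mesenchyme cells that give rise to nephrons, and for promoting cyst growth in models of polycystic disease. The kidneys here were whole organs without a cell sort, and messenger RNAs that mark nephron progenitors were not measured, so the values describe the cluster in the whole organ and not in that cell type. In such a bulk sample, fewer cells of a type and less RNA per cell cannot be told apart.

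The guide arm of each hairpin, the mature strand known to be loaded for silencing, is shown first because its seed sorts the 6 genes into 4 families. Sequences are from RefSeq (build GRCm38.p6), where all 6 members were found, and read 5′ to 3′ with the seed in capitals.
miR-17-5p of Mir17: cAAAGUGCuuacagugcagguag
miR-20a-5p of Mir20a: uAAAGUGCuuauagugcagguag
miR-18a-5p of Mir18: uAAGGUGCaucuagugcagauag
miR-19a-3p of Mir19a: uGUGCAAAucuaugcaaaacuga
miR-19b-3p of Mir19b-1: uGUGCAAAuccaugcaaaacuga
miR-92a-3p of Mir92-1: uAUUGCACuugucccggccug

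Counting from 1 at the 5′ end, miR-17-5p and miR-20a-5p differed at 2 of 23 bases (C1U and C12U), both outside the seed. The pair of miR-19 sequences differed at 1 base (U11C), also outside it. The seed AAAGUGC is held by 7 of the 1679 different mature miRNAs in the RefSeq table (0.417%), AUUGCAC by 6 (0.357%), and AAGGUGC and GUGCAAA by 2 each (0.119%). The GC content of the guide arms ran from 34.8% in miR-19a-3p and 39.1% in miR-19b-3p and miR-20a-5p to 57.1% in miR-92a-3p. Among the other arms of these hairpins, miR-17-3p shares its seed CUGCAGU with arms of Mir106a and Mir20b, and the seeds of miR-20a-3p and miR-92a-1-5p occur in no other gene of the table. Counts are per hairpin, and which arm a read came from is not recorded.

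In the mm10 assembly (GRCm38), with GENCODE M21 names, the hairpins span 836 bases of the plus strand of chromosome 14, from 115043671 to 115044506. Mir17 (ENSMUSG00000065508.1) lies from 115043671 to 115043754, Mir18 (ENSMUSG00000065403.1) from 115043851 to 115043946 and Mir19a (ENSMUSG00000065416.1) from 115044000 to 115044081. Mir20a (ENSMUSG00000065442.1) lies from 115044157 to 115044263, Mir19b-1 (ENSMUSG00000076256.1) from 115044305 to 115044391 and Mir92-1 (ENSMUSG00000076062.1) from 115044427 to 115044506. All 6 fall within exon 2 (115043271 to 115046727) of the host transcript of Mir17hg, a long non-coding RNA gene annotated from 115042879 to 115046727. Gaps between neighbouring hairpins ran from 35 bases, between Mir19b-1 and Mir92-1, to 96 bases, between Mir17 and Mir18.

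Within the cluster the genes differed widely in level, Mir17 being the highest and Mir19b-1 the lowest, although they share a transcript. Levels are in CPM, own-strand reads scaled to a library total of 1000000 over all miRNA genes, from 7434182 reads in replicate 1 and 5863293 in replicate 2. Reads matching several loci stand in no gene's count. Levels, ranks and shares therefore hold among uniquely placed reads, and miRNAs with several gene copies can rank too low. Reads are shorter than 30 nt by the library's size range, and a mature miRNA takes about the same length from any hairpin, so CPM was not divided by gene length except where stated. Intervals are 95% exact (Clopper-Pearson) binomial intervals and cover counting error only. The files hold 0 opposite-strand reads in the 6 members.

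Mir17, the founding member of its seed family, whose miRNA represses the cell cycle inhibitor Cdkn1a, had 208761 reads in replicate 1 and 165163 in replicate 2. These are 28081 CPM (27963 to 28200.2) and 28169 CPM (28035 to 28303), a mean of 28125 ± 62.0 CPM (SD, n = 2), at rank 9 and rank 10 of the libraries. Mir20a, of the same family, had 74164 and 53785 reads, or 9976 CPM (9905 to 10048) and 9173 CPM (9096 to 9251). The ratio of Mir17 to Mir20a was 2.81 in replicate 1 and 3.07 in replicate 2, so their ranges over the pools do not overlap. Mir20a ranked 22 by mean level.

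Mir18, with a seed close to that of Mir17 but not the same, had 25558 and 21139 reads, or 3438 CPM (3396 to 3480.2) and 3605 CPM (3557 to 3654). Mir92-1, whose family is known for targeting integrin and cell survival genes, had 23026 and 20936 reads, or 3097 CPM (3058 to 3138) and 3571 CPM (3523 to 3619). The ranges of these genes over the pools overlap, with Mir18 1.11 times Mir92-1 in replicate 1 and 1.01 times in replicate 2 (0.991 to 1.03), so their order was not resolved. Per 100 nt of hairpin they did not overlap and the order turned, at 3581 and 3756 CPM per 100 nt for Mir18 and 3872 and 4463 for Mir92-1, because the Mir92-1 hairpin is shorter (80 against 96 nt). No other neighbours in the order of the 6 genes changed place on that scale.

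The miR-19 genes, known as the main oncogenic part of the cluster in lymphoma models, were the lowest of the cluster. Mir19a had 402 and 235 reads, or 54.1 CPM (48.9 to 59.6) and 40.1 CPM (35.1 to 45.5), a mean of 47.1 ± 9.90 CPM at rank 215. Mir19b-1 had 127 and 84 reads, or 17.1 CPM (14.2 to 20.3) and 14.3 CPM (11.4 to 17.7), a mean of 15.7 ± 1.95 CPM at rank 260. Mir19a stood above Mir19b-1 in both pools, by 3.17 times (2.59 to 3.90) and 2.80 times (2.17 to 3.63), and the CPM ranges of the genes over the pools do not overlap. Mir92-1, the next gene up in the order, exceeded Mir19a by 57.3 and 89.1 times. Mir17 exceeded Mir19b-1 by 1644 times (1381 to 1972) and 1966 times (1588 to 2465). The low level is far above what a count of 0 allows, 3 counts or 0.404 CPM in replicate 1 and 0.512 CPM in replicate 2.

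**Figure D1:**
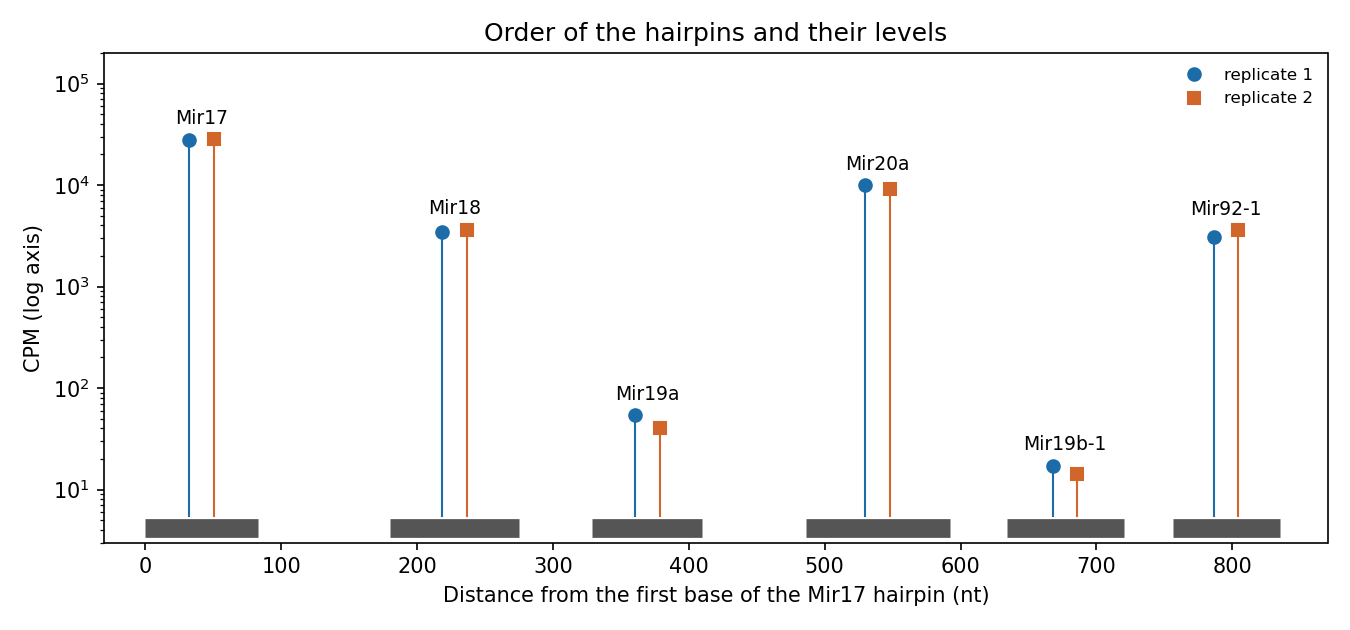
Grey boxes are the 6 hairpins, drawn to scale by distance in nucleotides from the first base of the Mir17 hairpin, and each stem rises to the gene's CPM (log axis) in replicate 1 (circle) and replicate 2 (square). Level did not follow the order on the transcript: Mir19a and Mir19b-1, the third and the fifth hairpins, stood at 14.3 to 54.1 CPM, and the other 4 hairpins at 3097 CPM or more.

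The 6 genes together had 332038 and 261342 reads, which is 44664 and 44573 CPM, or 4.46% ± 0.00644 of counts (SD, n = 2). The composition of that sum does not depend on how the libraries are scaled. Mir17 supplied 62.9% (62.7 to 63.0) of it in replicate 1 and 63.2% (63.0 to 63.4) in replicate 2. Mir20a followed with 22.3% and 20.6%, Mir18 with 7.70% and 8.09%, and Mir92-1 with 6.93% and 8.01%. Mir19a made up 0.121% and 0.0899%, and Mir19b-1 0.0382% and 0.0321%. By seed, 85.2% and 83.8% of the cluster's reads came from the pair of genes with AAAGUGC, and 0.159% and 0.122% from the pair with GUGCAAA.

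Shared sequence bears on part of these levels, because reads matching several loci were set apart by the authors and stand in no gene's count. There were 0.525 such reads per own-strand gene read in replicate 1 and 0.550 in replicate 2. The guide arms of Mir17, Mir18, Mir19a and Mir20a occur in no other GENCODE M21 gene than the host Mir17hg, and their hairpins share no stretch of 20 nt with any of 2201 other miRNA genes. The guide arms of Mir19b-1 and Mir92-1 are repeated letter for letter in Mir19b-2 and Mir92-2 on the X chromosome. The stretches below show where the copies part, with the mature miRNA in capitals and 4 bases of hairpin on either side in lower case.
Mir19b-1 (chromosome 14): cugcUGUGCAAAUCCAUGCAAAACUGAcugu
Mir19b-2 (X chromosome): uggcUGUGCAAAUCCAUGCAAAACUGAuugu
Mir92-1 (chromosome 14): auggUAUUGCACUUGUCCCGGCCUGuuga
Mir92-2 (X chromosome): aaagUAUUGCACUUGUCCCGGCCUGagga

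The longest run that Mir19b-1 shares with Mir19b-2 is 25 nt and extends past the 23 nt mature sequence at its 5′ end. For Mir92-1 and Mir92-2 the run is 22 nt, 1 base longer than the mature sequence of 21 nt, and the copies differ at the first base after its 3′ end. A read that lies within such a run matches both copies, so the counts of Mir19b-1 and Mir92-1 can be too low. The files do not say how many of their reads were set apart. Mir19a stood at 47.1 CPM, with a longest shared run of 13 nt. Such runs count exact matches only, and miR-19a-3p differs from miR-19b-3p at 1 base (U11C). How many mismatches the alignment allowed is not known, so the search cannot decide whether reads of Mir19a were set apart. These searches covered annotated genes only, and copies elsewhere in the genome were not analysed here. Why Mir19a was low was not tested.

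Mammals carry the cluster in 3 copies that arose by duplication. The miR-106b-25 cluster (Mir106b, Mir93 and Mir25, within Mcm7 on chromosome 5) and the miR-106a-363 cluster (Mir106a, Mir18b, Mir20b, Mir19b-2, Mir92-2 and Mir363, on the X chromosome) are its paralogs. In reads, miR-17-92 exceeded miR-106b-25 by 2.62 and 2.75 times in replicates 1 and 2. It exceeded miR-106a-363 by 50.1 and 51.1 times. The copies of a position were set side by side next.

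At the first position, Mir17 exceeded Mir106b by 4.14 times (4.10 to 4.18) in replicate 1, and in replicate 2 the ratio was 4.61 (4.56 to 4.67). It exceeded Mir106a by 84.6 times (81.3 to 88.0) and 83.97 times (80.3 to 87.8), although these 2 guide arms differ at a single base (U10A). Mir18 exceeded Mir18b, from which its guide arm differs at 2 bases (A18U and A20U), by 164 and 178 times. Each of these orders held in both pools.

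Mir20a and Mir93 were the exception. Mir20a stood at 9976 and 9173 CPM and Mir93 at 9707 and 9550 CPM, so their ranges overlap, and Mir20a was higher in replicate 1 (1.03 times) and lower in replicate 2 (0.961 times). Mir20a exceeded Mir20b by 52.7 and 48.9 times. Mir92-1 exceeded Mir25 by 5.73 and 6.70 times and its copy Mir92-2 by 25.1 and 23.6 times. Mir19b-1 exceeded Mir19b-2, which had 35 and 38 reads, by 3.63 times (2.48 to 5.44) and 2.21 times (1.49 to 3.33), the smallest of the gaps between chromosome 14 and X copies. That comparison covers only reads that could be placed, and so do those of Mir92-1 with Mir92-2 and with Mir25. Reads matching both Mir92-1 and Mir92-2 are in no count, so the ratio of Mir92-1 to Mir25 can be too low.

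**Figure D2:**
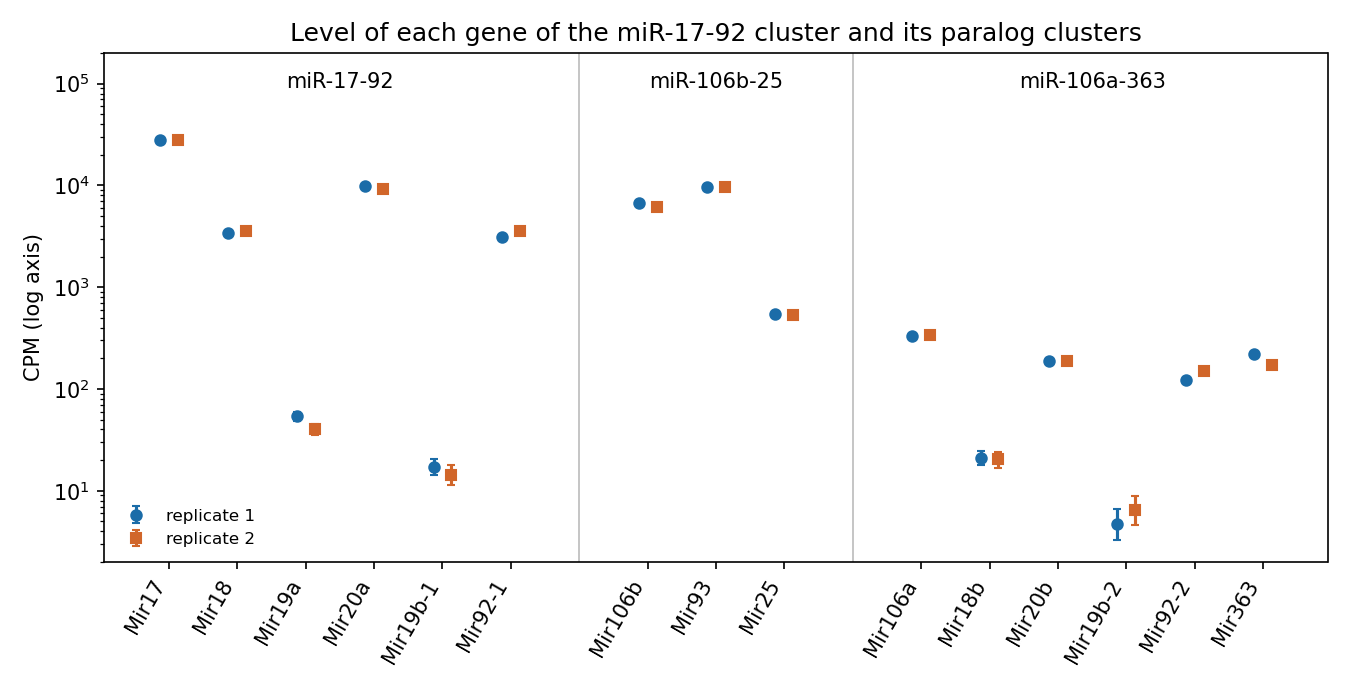
Points are the CPM (log axis) of each gene in replicate 1 (circle) and replicate 2 (square), with 95% exact binomial bars where they exceed the symbol, for the miR-17-92 cluster and its paralog clusters. Mir19a and Mir19b-1 lie below every other gene of their cluster, and Mir19b-2, at 4.71 and 6.48 CPM, is the lowest point of all 15.

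Among placed reads, the same seed was lowest in both clusters that carry it. In miR-106a-363, Mir19b-2 supplied 0.528% (0.368 to 0.733) and 0.743% (0.526 to 1.02) of reads, against 58.4% and 59.9% from the genes with AAAGUGC and 38.7% and 37.0% from those with AUUGCAC. In miR-106b-25, which has no miR-19 gene, Mir93 and Mir106b supplied 96.8% and 96.7%. The AAAGUGC genes thus led in all 3 clusters, by shares that ranged from 58.4% to 96.8%.

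Summed over the genome, the cluster supplied most of the reads of each of its seed families. Of the AAAGUGC family, 69.1% (69.0 to 69.3) in replicate 1 and 69.8% (69.6 to 69.9) in replicate 2 came from Mir17 and Mir20a, and Mir17 alone gave 51.0% and 52.6%. miR-106b-25 gave 29.9% and 29.2%, miR-106a-363 gave 0.947% and 0.977%, and Mir6383, which also holds the seed, had 0 reads. The family as a whole held 55064 and 53519 CPM. Of the AAGGUGC family, 99.4% in either pool came from Mir18.

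Of the GUGCAAA family, 93.8% (91.5 to 95.6) and 89.4% (85.7 to 92.4) came from Mir19a and Mir19b-1, but the family held only 75.9 and 60.9 CPM of placed reads. Of the AUUGCAC family, 71.4% (70.9 to 71.9) and 74.8% (74.3 to 75.3) came from Mir92-1. The rest was Mir25 with 12.4% and 11.2%, Mir363 with 5.11% and 3.60%, Mir32 with 4.73% and 3.50%, Mir92b with 3.50% and 3.72%, and Mir92-2 with 2.85% and 3.17%, while Mir367, a miRNA of pluripotent cells, had 0 reads. Since reads of miR-92a-3p and miR-19b-3p can be set apart, the shares of these last families cover placed reads only.

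**Figure D3:**
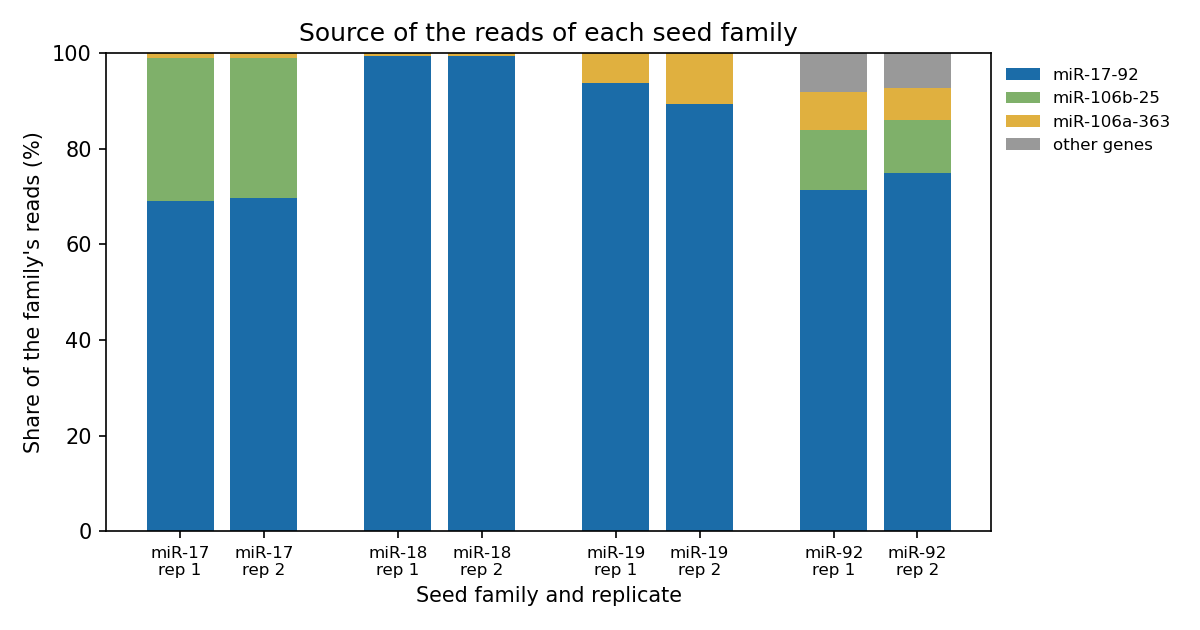
Stacked bars give the share (%) of each seed family's reads by source, for replicate 1 and replicate 2: miR-17-92 (blue), miR-106b-25 (green), miR-106a-363 (yellow) and other genes (grey). The blue part runs from 69.1% in the miR-17 family to 99.4% in the miR-18 family.

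The pools matched closely in the cluster's sum and less closely in single members. The sum had a log2 ratio of replicate 2 over replicate 1 of -0.0029 (-0.0103 to 0.0045). For each of the 378 genes that averaged 10 or more reads, the split of reads between the libraries was set against their totals (exact binomial, two-sided, Benjamini-Hochberg adjustment over all 378). Only counting error enters the test, which says nothing of conditions. By it 4 of the 6 members differed, against 55.8% of all genes tested, which is near the members' own share, and none of them by 2-fold or more, against 6.08% of all genes.

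Mir18 and Mir92-1 were higher in replicate 2, in a direction taken by 40.2% of all genes. Mir92-1 went from 3097 to 3571 CPM, a log2 ratio of 0.21 (0.18 to 0.23, exact binomial adjusted p = 3.86e-49). Mir18 went from 3438 to 3605 CPM, a log2 ratio of 0.069 (0.042 to 0.095, exact binomial adjusted p = 9.48e-07), but its direction turned with TMM scaling (-0.059) and DESeq2 size factors (-0.092). Those scalings move the ratio of every gene, and the median of all genes, by -0.13 and -0.16.

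Mir20a and Mir19a were lower in replicate 2, in a direction taken by 15.6% of all genes. Mir20a went from 9976 to 9173 CPM, a log2 ratio of -0.12 (-0.14 to -0.11, exact binomial adjusted p = 5.27e-49). Mir19a went from 54.1 to 40.1 CPM, a log2 ratio of -0.43 (-0.67 to -0.20, exact binomial adjusted p = 0.000535), the largest of the 6 in size. Mir17 at 0.0045 (exact binomial adjusted p = 0.442) and Mir19b-1 at -0.25 (-0.67 to 0.16, exact binomial adjusted p = 0.298) did not pass the test, and Mir17 turned to -0.12 and -0.16, past the threshold, with TMM scaling and DESeq2 size factors. The median over the 6 members was -0.058, and over all genes tested 0.15. Relative to the median of all genes only Mir92-1 lay above, at 0.057, and the other 5 lay below, from -0.079 for Mir18 to -0.58 for Mir19a.

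**Figure D4:**
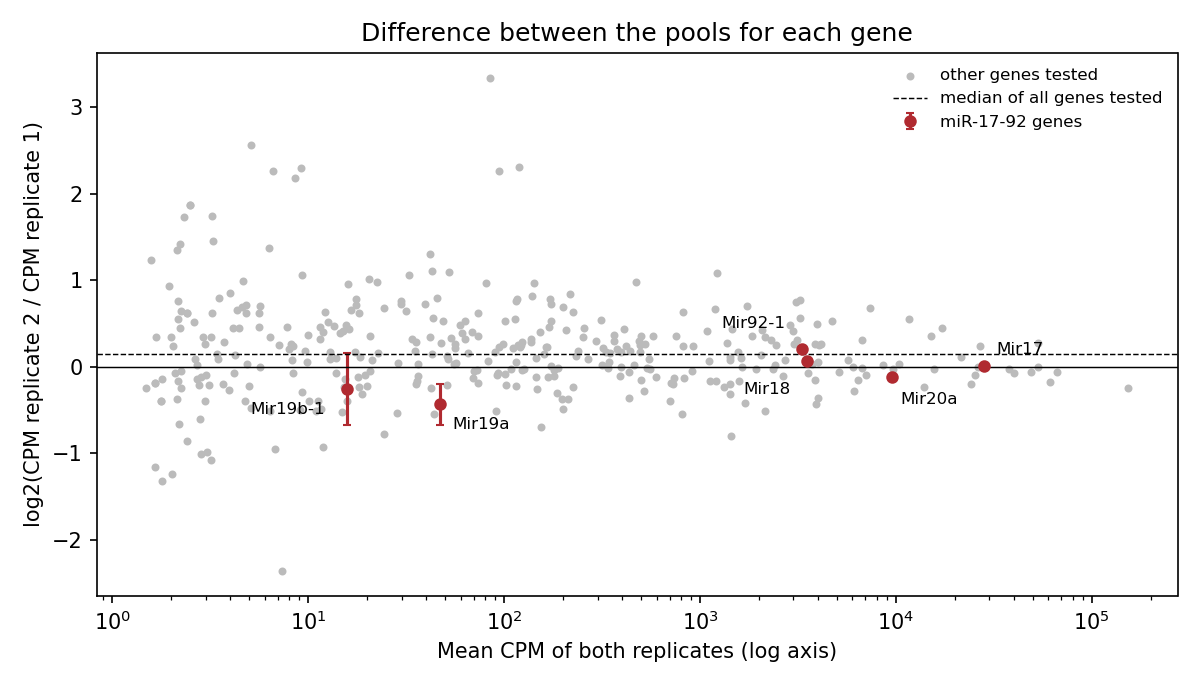
Each point is a gene that averaged 10 or more reads, with mean CPM (log axis) against the log2 ratio of CPM in replicate 2 over replicate 1; the 6 members are red, with 95% exact binomial bars, the solid line is 0 and the dashed line the median of all genes tested, 0.15. The members lie between -0.43 and 0.21, and only Mir92-1 is above the dashed line.

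Within the cluster's own reads, where scaling has no part, Mir92-1 stood at 6.93% (6.85 to 7.02) in replicate 1 and 8.01% (7.91 to 8.12) in replicate 2, and Mir20a at 22.3% (22.2 to 22.5) and 20.6% (20.4 to 20.7), intervals that do not overlap. Placed reads of members of a single transcript thus differed between the pools in proportion to each other. Reads that match both Mir92-1 and Mir92-2 are in neither count, and their number in each pool is not known. Mir17 and Mir20a have guide arms with no such exact copy. The ratio of Mir17 to Mir20a was 2.81 in replicate 1 and 3.07 in replicate 2. The guide arm of Mir17 differs from that of Mir106a at 1 base. How many mismatches the alignment allowed is not known, so whether reads of Mir17 or Mir20a were set apart cannot be decided. Mir92-2, with the same guide arm as Mir92-1, also had a positive log2 ratio, 0.29 (0.16 to 0.43, exact binomial adjusted p = 4.90e-05). Of the 9 paralog genes 1 was higher and 3 were lower in replicate 2, against 40.2% and 15.6% of all genes, and their median was -0.018 where that of all genes was 0.15. The lower ones were Mir363 at -0.37, Mir106b at -0.15 and Mir93 at -0.023.

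Cell type markers also differed between the pools. Of the 31 marker genes tested in 12 lists, 11 were higher and 12 lower in replicate 2 by the same test, against 40.2% and 15.6% of all genes. The summed levels below are shares of counts in replicates 1 and 2, and several rest on single genes. The sum was higher in replicate 2 for nephron epithelium (2.73% and 3.84%, with 3 of 3 genes higher), and for smooth muscle (2.50% and 2.94%, with Mir143 higher and Mir145a not passing the test). It was also higher for erythroid cells (0.0339% and 0.0466%, with 1 of 2 genes higher) and leukocytes (0.0619% and 0.0700%, with 1 of 3 higher). The lists of a single gene, Mir375 for endocrine cells (0.124% and 0.168%) and Mir122 for liver (0.0319% and 0.0628%), were higher as well. The neural sum (0.0129% and 0.0219%) was that of Mir137, which was higher, and Mir9-3, with 19 and 6 reads, a log2 ratio of -1.32 that did not pass the test, while Mir9-2 and Mir124a-1 were at 0. The sum was lower for tubule epithelium (2.48% and 2.13%), where 4 of 5 genes were lower and Mir200c was higher, and for kidney-enriched miRNAs (0.0516% and 0.0366%), where Mir192 and Mir204 were lower and the other 3 did not pass the test. For Hox-linked miRNAs of the posterior body (25.9% and 22.3%) the sum was mostly Mir10a and Mir10b, which were lower in replicate 2. Mir196b, at 26095 and 24366 CPM, was lower too, while Mir196a-1 was higher. Mir126a of endothelium (4.97% and 4.78%) and 2 of 3 skeletal muscle genes (0.0971% and 0.0661% in sum, with Mir1a-1 at 0) were lower. Near copies outside the lists need not move with the sum of a list. Mir196a-2, noticed after its values were seen, had a log2 ratio of 0.48. The listed Mir196a-1 was also higher (0.32), while the Hox-linked sum was lower. Mir30b had a log2 ratio of -0.52, while the nephron sum was higher. The part of these shifts in the members' differences was not tested. The leukocyte gene Mir142 and the neural gene Mir9-1 were not analysed here. Epithelial and Hox-linked markers were thus present, and the lists of skeletal muscle, liver, erythroid, leukocyte and neural cells each held under 0.1% of counts. These shares leave out reads matching several loci, and which markers lose reads that way was not analysed here. A low sum or a count of 0 is therefore no measure of how many such cells the pools held.

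Genes outside these families that were nearest to each member in level over both pools were found by the distance between log2 CPM values of the 2 libraries, among 575 genes with reads in both. They were Mir26b for Mir17 (distance 0.13), Mir149 for Mir18 (0.099), Mir23a for Mir20a (0.19) and Mirlet7b for Mir92-1 (0.16). For the low members they were Mir33 for Mir19a (0.18), with 386 and 209 reads, and Mir3080 for Mir19b-1 (0.068), with 122 and 82 reads. With 2 libraries this likeness is one of level only.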

How the data were processed

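Per the labels, the libraries hold RNA shorter than 30 nt from total RNA of 2 kidney pools. The deposited files give raw read counts per miRNA gene on either strand, on its own strand and on the opposite strand, made by the authors from alignments to mm10 with GENCODE M4, per the notes deposited with them. No source used here names the aligner or counter. Reads matching several loci (27.1% and 26.6% of reads) have a line of their own and were kept out of library totals, as were unmapped reads (17.7% and 19.7%) and reads in no gene (2.57% and 4.05%). Own-strand counts were divided by their sum over all gene rows. GENCODE M21, on the same assembly, gave names to 1894 of 1973 genes by identifier, and the other genes held 5 reads. RefSeq (GRCm38.p6) gave the mature sequences. Guide arms were named from general knowledge.

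The members and gene lists were chosen with earlier results of these data known. Named genes are the members, their paralogs, other genes with a member's seed and a mean count of at least 100, and the nearest gene in level to each member. Mir6383 and Mir367, at 0 reads, and markers fall outside that rule. With 1 group no contrast was fitted. The exact binomial test was run on 378 genes (those averaging 10 or more reads), and the calculation was tested on simulated data. Alternatives were TMM (edgeR 4.0.16), size factors (DESeq2 1.42.0, R 4.3.3), other totals, strands, count minimum, pseudocount, fold and copies summed, and after seeing the data, members with copies left out and CPM per hairpin length. Python 3.11.15 with scipy 1.17.1, numpy 2.4.6, pandas 2.3.3 and matplotlib 3.10.9 was used.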

Additional observations from a re-analysis of the deposited data

How the results depend on the processing

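The sum over the 6 genes, 44618 CPM, was 44573 and 44664 CPM in single replicates and moved by less than its SD with TMM scaling. It stood at 44689 CPM with DESeq2 size factors, 43616 with both strands counted, 52753 with Mir10a out of the total, 22310.4 over all reads of the files, and 41268 without Mir19b-1 and Mir92-1, a choice made after seeing the data. The SD of the sum is 64.4 CPM, so small shifts count as moved. Of the 4 members that differed between the libraries, 0 did so by 2-fold, against 6.08% of all genes. With TMM or DESeq2 scaling 5 differed (against 58.2% and 59% of all genes), where Mir17 was added. With Mir10a out of the total 4 differed (against 56.6% of all genes), but Mir17 took the place of Mir18. With no count minimum the same 4 differed, against 29.6% of the 729 genes then tested. They also differed with both strands counted, against 56.8% of all genes. The log2 ratio of Mir17 turned to -0.12 (TMM), -0.16 (DESeq2) and -0.041 (Mir10a out of the total), past the threshold in each, and that of Mir18 to -0.059 and -0.092 (TMM and DESeq2), falling below the threshold at 0.023 with Mir10a out. The other 4 members kept their direction in all scalings. The share of Mir17 in the sum was 62.9% and 63.2% in single replicates. Counting both strands cannot move it, since the members have 0 opposite-strand reads, and with 2 libraries a single replicate always lies within the SD, so neither bears on stability. Adding the placed reads of the X chromosome copies moved the share of Mir19b-1 from 0.0352% to 0.0476%. Reads matching both copies stay out of that sum, so it cannot show how many reads were set apart. Leaving out a library leaves no comparison of libraries, so that test was not run. Depth limits Mir19b-1 most, with 84 to 127 reads.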
